A study of Mus musculus with 4 samples.

Results

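Podocytes are the epithelial cells that wrap the capillaries of the glomerulus, the filter of the kidney. Their foot processes interdigitate and are joined by the slit diaphragm, a cell junction built around nephrin, which is anchored to the actin cytoskeleton and holds back plasma protein. Podocyte identity is kept by a small set of transcription factors, WT1 among them, and loss of slit diaphragm proteins leads to proteinuria. Described here are 8 podocyte genes, taken by symbol from the 29190 genes of the deposited count table: Nphs1, Cd2ap, Plce1, Synpo, Podxl, Ptpro, Nes and Wt1. Each symbol had a row of its own, and all 8 were among the 17419 genes that passed the filter on low counts.

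RNA of whole kidney was compared between C57 mice injected with cisplatin at 30 mg/kg (2 libraries) and mice injected with physiological saline (2 libraries). Cisplatin, a platinum compound, crosslinks DNA and injures kidney tubules. All animals were males of 8 weeks. The study divided 18 mice into 3 groups and killed cisplatin animals 24 h or 48 h after injection. The labels give neither the time of the cisplatin libraries nor whether a library pools several animals. P-values measure the spread between these libraries (biological coefficient of variation 6.42%), which may be technical.

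The libraries held between 20662475 and 27122403 counts. The tissue carried the transcripts of every kidney cell type looked for. Proximal tubule markers, from the segment where most filtrate is taken back up, summed to between 3155 and 3193 CPM (counts relative to library depth, scaled between libraries by the trimmed mean of M values, TMM) after cisplatin and to between 22062 and 22190 CPM after saline. All 10 of these markers fell.

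All 8 podocyte transcripts rose after cisplatin, by between 1.33-fold and 2.45-fold. A call means a Benjamini-Hochberg adjusted p under 0.05 from edgeR (quasi-likelihood), and the largest adjusted p among the 8 was 8.38e-05. Most genes changed in this comparison: 73.6% of all tested genes were called in either direction, so that a call alone sets no gene apart. Of all tested genes 37.2% were called higher, 36.4% were called lower, and 44.7% had both cisplatin libraries above both saline libraries. The median log2 fold change of the 8 genes was 0.79, beside 0.04 for all tested genes. Together the 8 genes took 0.104% and 0.103% of the unscaled counts of the cisplatin libraries, against 0.0511% and 0.0534% of those of the saline libraries. After TMM scaling they summed to 908 and 924 CPM after cisplatin, against 594 and 593 CPM after saline. RNA of whole tissue cannot separate a change in the number of podocytes from a change in transcript per podocyte, nor either from a change in the RNA that other cells contribute: these cannot be told apart here.

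The promoters that RefSeq places at these genes (GRCm38.p6) are shown for the slit diaphragm gene Nphs1, for its adaptor Cd2ap and for Nes, which had the largest rise. Each line is the 250 bases before the annotated start, 5′ to 3′ on the strand of the gene. Capitals mark matches to GNGTGGGNG, a pattern of the WT1 and EGR zinc finger type, searched on both strands over these 250 bases and the 50 that follow. Nphs1 stands at chr7:30459808-30460057 (plus strand), Cd2ap at chr17:42876425-42876674 (minus strand) and Nes at chr3:87970843-87971092 (plus strand). The RefSeq starts of Nphs1, Cd2ap, Nes and Plce1 lie inside the longer spans that GENCODE gives these genes. The Nphs1 window lies wholly within its GENCODE span, as does that of Plce1 (chr19:38523947-38524196, span from 38481109). The Cd2ap window lies largely within its span, which ends at 42876665, and the marked match begins inside it.
Nphs1: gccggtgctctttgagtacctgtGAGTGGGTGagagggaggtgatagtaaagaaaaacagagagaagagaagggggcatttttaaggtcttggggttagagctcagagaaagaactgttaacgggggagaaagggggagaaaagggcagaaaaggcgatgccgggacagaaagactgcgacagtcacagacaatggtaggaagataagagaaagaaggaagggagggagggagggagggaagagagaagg
Cd2ap: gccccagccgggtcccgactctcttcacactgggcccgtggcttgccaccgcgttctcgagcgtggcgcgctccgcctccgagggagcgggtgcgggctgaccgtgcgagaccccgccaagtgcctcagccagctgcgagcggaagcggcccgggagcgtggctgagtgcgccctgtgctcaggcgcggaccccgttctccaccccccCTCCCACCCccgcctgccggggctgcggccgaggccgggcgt
Nes: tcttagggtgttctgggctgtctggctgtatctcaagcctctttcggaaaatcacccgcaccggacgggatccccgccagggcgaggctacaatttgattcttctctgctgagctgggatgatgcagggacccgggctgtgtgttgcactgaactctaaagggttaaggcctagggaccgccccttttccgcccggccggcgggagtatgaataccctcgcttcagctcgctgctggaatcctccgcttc

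A promoter was matched for 5 of the 8 genes, and 2 of these 5 held the pattern GNGTGGGNG. In Nphs1 the match began 227 bases before the start, on the strand of the gene, and in Cd2ap it covered 42 to 34 bases before the start, on the other strand. The same pattern was present in 14.1% of 27025 promoters of this length. TAATTA, a pattern of LIM homeodomain factors (5.31% of promoters), was not found in the 5 windows. Those of Nes, Ptpro and Plce1 held neither pattern. A match is a string of letters and not a measured binding site. Base composition differed widely, from 41% G and C in the Plce1 window to 77% in the Cd2ap window.

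Nphs1 encodes nephrin, the adhesion protein that spans the slit between foot processes (ENSMUSG00000006649.14; GENCODE M21, GRCm38, chromosome 7, 30458315 to 30487223, plus strand). It stood at 42.0 and 41.8 CPM in the cisplatin libraries, against 20.2 and 22.9 CPM in the saline libraries. Both cisplatin libraries lay above both saline libraries, and the cisplatin libraries were nearly equal. On the log2 scale nephrin transcript rose by 0.95 (SE 0.09; edgeR quasi-likelihood, adjusted p = 5.69e-09). The antisense gene Nphs1os shares 597 exonic bases with Nphs1, and whether the counting used strand is not given. Nphs1os itself had at most 2 counts in any library. The processed pseudogene Rps12-ps4 shares 183 exonic bases with Nphs1 and has no row among the deposited counts. Whether its reads were counted in Nphs1 was not tested.

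Cd2ap encodes an adaptor that couples nephrin to actin and is also made in many other epithelial cells (chromosome 17, 42792951 to 42876665, minus strand). It stood at 222 and 214 CPM after cisplatin, against 162 and 166 CPM after saline. The groups did not overlap, yet the rise was the smallest of the 8, 0.41 on the log2 scale (SE 0.06; edgeR quasi-likelihood, adjusted p = 3.25e-06). Plce1 encodes phospholipase C epsilon, a signalling enzyme whose loss causes nephrotic syndrome in human children (chromosome 19, 38481109 to 38785030, plus strand). It stood at 34.5 and 32.5 CPM after cisplatin, against 25.2 and 23.3 CPM after saline. This rise was of similar size to that of Cd2ap, 0.47 on the log2 scale (SE 0.09; edgeR quasi-likelihood, adjusted p = 8.38e-05).

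Synpo encodes synaptopodin, an actin-binding protein of the foot process (ENSMUSG00000043079.15, chromosome 18). It stood at 74.7 and 84.5 CPM in the cisplatin libraries, against 37.2 and 32.7 CPM in the saline libraries. Both cisplatin libraries lay far above both saline libraries. The log2 fold change was 1.19 (SE 0.08; edgeR quasi-likelihood, adjusted p = 2.24e-11). Nes encodes nestin, an intermediate filament protein that marks podocytes in the mature glomerulus and is also made by endothelial and mural cells (ENSMUSG00000004891.14, chromosome 3, 87971078 to 87980451, plus strand). It stood at 108.0 and 112 CPM after cisplatin, against 43.8 and 45.9 CPM after saline. Replicates were close, the groups lay far apart, and the log2 fold change of 1.29 (SE 0.06) was the largest of the 8 (edgeR quasi-likelihood, adjusted p = 7.81e-14).

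Podxl encodes podocalyxin, the charged sialomucin that keeps foot processes apart and also coats vascular endothelium (ENSMUSG00000025608.9, chromosome 6, 31519488 to 31563981, minus strand). It stood at 352 and 369.5 CPM in the cisplatin libraries, against 263 and 258 CPM in the saline libraries. The groups did not overlap, and the log2 fold change was 0.47 (SE 0.06; edgeR quasi-likelihood, adjusted p = 5.25e-07). Ptpro encodes a receptor tyrosine phosphatase of the foot process surface (chromosome 6, 137252319 to 137463233, plus strand). It stood at 57.9 and 51.4 CPM after cisplatin, against 34.1 and 36.1 CPM after saline. Its rise of 0.63 on the log2 scale (SE 0.08; edgeR quasi-likelihood, adjusted p = 3.15e-07) lay between those of Podxl and Nphs1.

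Wt1 encodes the zinc finger transcription factor that maintains podocyte identity and is also present in parietal cells of Bowman's capsule (ENSMUSG00000016458.11, chromosome 2, 105126529 to 105173616, plus strand). It was the thinnest of the 8 in reads, with 405 and 488 counts after cisplatin, against 159 and 202 counts after saline. After scaling these were 17.1 and 18.8 CPM after cisplatin, against 8.60 and 8.28 CPM after saline. The groups did not overlap, and the rise of 1.09 on the log2 scale had the widest standard error of the 8, 0.12 (edgeR quasi-likelihood, adjusted p = 6.17e-08).

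Per unit of transcript length, on the authors' deposited FPKM scale, Podxl was the most abundant of the 8 in both groups. It averaged 46.4 ± 1.05 FPKM after cisplatin and 27.8 ± 1.48 FPKM after saline (SD, n = 2 each). Cd2ap followed with 27.96 ± 1.12 FPKM after cisplatin and 17.5 ± 1.51 FPKM after saline, and Nes with 12.4 ± 0.141 FPKM after cisplatin and 4.21 ± 0.424 FPKM after saline. The order of the next 3 differed between the groups. After cisplatin it ran Synpo (6.52 and 7.25 FPKM), Nphs1 (6.37 and 6.22 FPKM) and Ptpro (6.0 and 5.23 FPKM), with no overlap between neighbours. After saline Ptpro (2.77 and 3.23 FPKM), Nphs1 (2.4 and 3.0 FPKM) and Synpo (2.54 and 2.46 FPKM) followed, each neighbour overlapping the next, so that their order is within the spread. Wt1 and Plce1 were lowest, at 3.70 ± 0.205 and 2.32 ± 0.127 FPKM after cisplatin, and at 1.44 ± 0.0566 and 1.40 ± 0.0212 FPKM after saline, where their libraries overlapped.

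**Figure D1:**
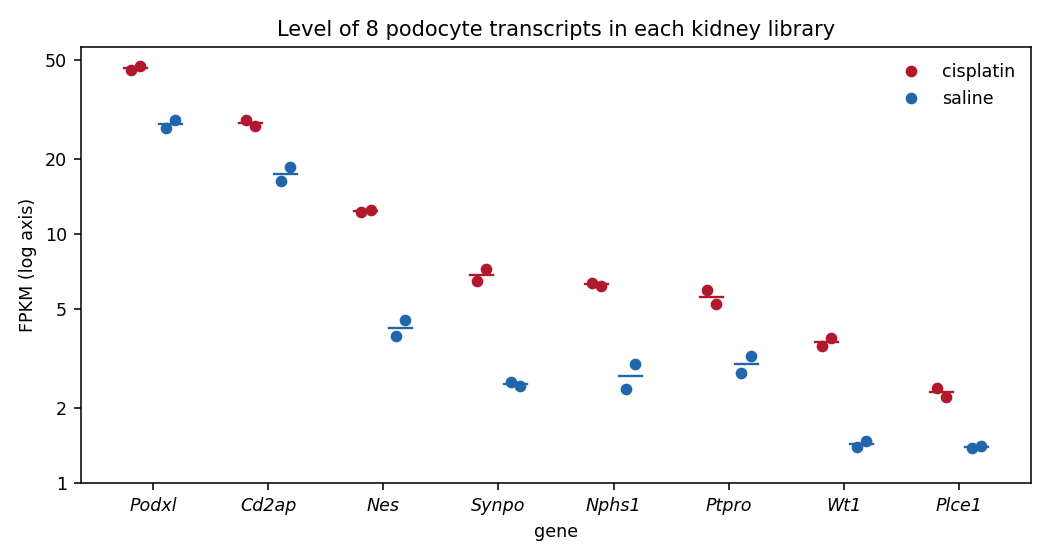
Level of each podocyte transcript in FPKM (log axis), with a point for each library, a line at the mean of the 2 libraries, cisplatin in red and saline in blue. Both cisplatin points lie above both saline points in all 8 genes, and Podxl and Cd2ap stand highest.

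The 8 transcripts did not rise by an equal amount. Nes, Synpo and Wt1 rose at least 2-fold, with fitted ratios of 2.45, 2.29 and 2.13, whereas 19.2% of all tested genes were called and at least 2-fold higher. Nphs1 stood just under that mark at 1.94, Ptpro at 1.55, and Podxl, Plce1 and Cd2ap at 1.39, 1.38 and 1.33. The number past 2-fold depended on the setting. With library size alone it was 5 of 8, Nphs1 and Ptpro (log2 fold changes 1.32 and 1.00) being added. Nphs1 also passed with upper-quartile scaling (1.07), with FPKM at a pseudocount of 0.1 (1.1998 on the log2 scale of FPKM plus pseudocount) and without saline replicate 2 (1.05). Wt1 stood below with FPKM at a pseudocount of 1 (0.94). Among all tested genes, ranked by log2 fold change, Nes stood at percentile 85.7 and Cd2ap at percentile 64.0.

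**Figure D2:**
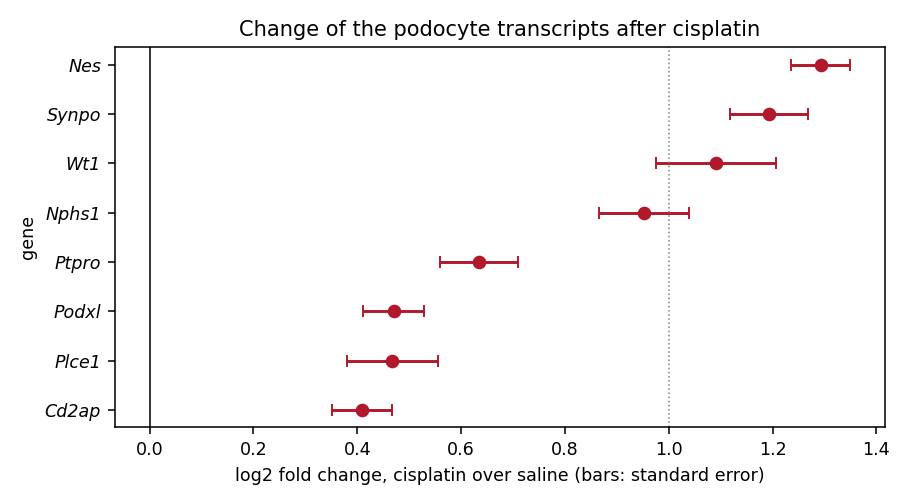
Log2 fold change of cisplatin over saline for the 8 genes (points) with the standard error of the fit (bars), and a dotted line at a 2-fold rise. Nes, Synpo and Wt1 lie to the right of the dotted line, and Podxl, Plce1 and Cd2ap are grouped between 0.41 and 0.47.

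Ratios of the counts of 2 members within a library do not depend on how libraries are scaled to each other. Of the 28 pairs, 21 had ratios that did not overlap between the groups. Lack of overlap was common in these libraries, since 44.7% of all tested single genes had both cisplatin libraries above both saline libraries and 41.7% had both below, so the count of pairs shows nothing particular to the members. With 2 libraries against 2 the exact two-sided permutation test cannot give a p below 0.33, and the smallest p adjusted over the 28 pairs was 0.444, so none of these differences reached the threshold. Nes per count of Cd2ap was 0.486 and 0.523 in the cisplatin libraries, against 0.270 and 0.276 in the saline libraries, the largest shift of any pair. Nphs1 per count of Podxl was 0.119 and 0.113 after cisplatin, against 0.0767 and 0.0891 after saline. Nphs1 per count of Wt1, by contrast, was 2.46 and 2.22 after cisplatin and 2.35 and 2.77 after saline, so those groups overlapped. Podxl per count of Plce1, at 10.2 and 11.4 after cisplatin and 10.4 and 11.1 after saline, overlapped as well.

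Other genes of the podocyte were drawn from 5 lists holding 59 genes, of which 58 were tested. How much of their RNA in whole kidney came from podocytes was not measured. Of these 32 rose, 16 fell and 10 were not called, with a median log2 fold change of 0.43. With library size alone as the scaling, 40 were called higher and 10 lower, while over all tested genes the counts were 9110 higher and 4207 lower in place of 6487 and 6333. That scaling moved the median log2 fold change of all tested genes to 0.41. A change of scaling moves all genes alike, so it leaves the distance between the members' median and that of all genes nearly as it was (0.75). That distance was 0.64 with no filter, 0.65 with DESeq2 and 0.84 with FPKM at a pseudocount of 0.1.

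In the slit diaphragm complex 7 of 13 tested genes rose, 3 fell and 3 were not called (median log2 fold change 0.33). The junction scaffold gene Tjp1 rose to 181 ± 4.21 CPM after cisplatin, against 108 ± 7.38 CPM after saline. The protocadherin gene Fat1 rose to 514 ± 2.24 CPM after cisplatin, against 232 ± 1.23 CPM after saline. Nck2, whose adaptor protein binds phosphorylated nephrin, had 21.7 ± 1.53 CPM after cisplatin and 21.5 ± 3.22 CPM after saline (edgeR quasi-likelihood, adjusted p = 0.888). With library size alone it was called higher (log2 fold change 0.38, adjusted p = 0.00169). Kirrel, Magi1 and Pard3 were picked after their values were seen. Kirrel, which encodes a nephrin-binding protein, had a log2 fold change of 1.73 (SE 0.10), whereas the scaffold genes Magi1 and Pard3 fell, with log2 fold changes of -1.61 (SE 0.10) and -1.24 (SE 0.08).

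Of the 7 podocyte transcription factor genes 4 rose, 2 fell and 1 was not called (median 0.79). The forkhead gene Foxc1 rose to 26.7 ± 1.59 CPM after cisplatin, against 12.2 ± 0.734 CPM after saline. Tcf21, a basic helix-loop-helix gene that interstitial cells also express, fell to 12.1 ± 1.00 CPM after cisplatin, against 17.4 ± 1.98 CPM after saline. That call was lost in 3 of 13 alternatives, FPKM at either pseudocount and library size alone (log2 fold change -0.15, edgeR quasi-likelihood, adjusted p = 0.24). Dach1 fell to 13.1 ± 0.659 CPM after cisplatin, against 23.1 ± 1.08 CPM after saline.

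Genes of the podocyte surface and its secreted products were split, with 6 higher, 6 lower and 2 not called of 14 (median -0.02). Enpep, the aminopeptidase A gene, which proximal tubule also expresses, fell to 135 ± 3.29 CPM after cisplatin, against 359 ± 4.34 CPM after saline, and Vegfa, the endothelial growth factor gene, to 91.7 ± 3.23 CPM after cisplatin, against 156 ± 2.25 CPM after saline. Clic5, of the chloride intracellular channel family, fell to 151 ± 0.804 CPM after cisplatin, against 197 ± 10.4 CPM after saline. This call was lost in 3 of 13 alternatives, FPKM at either pseudocount and library size alone (log2 fold change -0.02, edgeR quasi-likelihood, adjusted p = 0.85). Dag1, the dystroglycan gene, rose to 136 ± 3.27 CPM after cisplatin, against 109 ± 4.44 CPM after saline.

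Among actin regulators active in podocytes 7 of 12 rose, 1 fell and 4 were not called (median 0.43). Myh9, the non-muscle myosin heavy chain gene, rose to 755 ± 24.0 CPM after cisplatin, against 339.9 ± 3.002 CPM after saline. Arhgdia, a GDP dissociation inhibitor gene, rose to 128 ± 13.7 CPM after cisplatin, against 77.0 ± 0.178 CPM after saline. Actn4, the alpha-actinin gene of the foot process, rose by a log2 fold change of 0.25 (SE 0.07), which without saline replicate 2 was 0.13 (edgeR quasi-likelihood, adjusted p = 0.231). Ezr, which encodes the linker ezrin that binds the podocalyxin complex, had 325 ± 0.397 CPM after cisplatin and 303 ± 6.16 CPM after saline (edgeR quasi-likelihood, adjusted p = 0.117). It was called higher in 5 of 13 alternatives. These were upper-quartile scaling, a filter of 1 CPM in 2 libraries, FPKM at either pseudocount, and library size alone (log2 fold change 0.47, edgeR quasi-likelihood, adjusted p = 2.40e-06).

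In the glomerular basement membrane and its integrin 8 of 12 genes rose and 4 fell (median 0.90). Cd151, a tetraspanin partner of the laminin receptor, rose to 188 ± 2.86 CPM after cisplatin, against 89.2 ± 2.39 CPM after saline. Itgb1, the integrin beta chain gene, rose to 650.2 ± 6.88 CPM after cisplatin, against 496 ± 3.34 CPM after saline. The type IV collagen chain genes moved the other way. Col4a3 fell to 162 ± 3.40 CPM after cisplatin, against 359 ± 3.50 CPM after saline, and Col4a4 to 141 ± 3.80 CPM after cisplatin, against 353 ± 0.948 CPM after saline. The laminin chain genes Lama5 and Lamb2, picked after their values were seen, had log2 fold changes of 1.51 (SE 0.06) and 1.07 (SE 0.06).

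**Figure D3:**
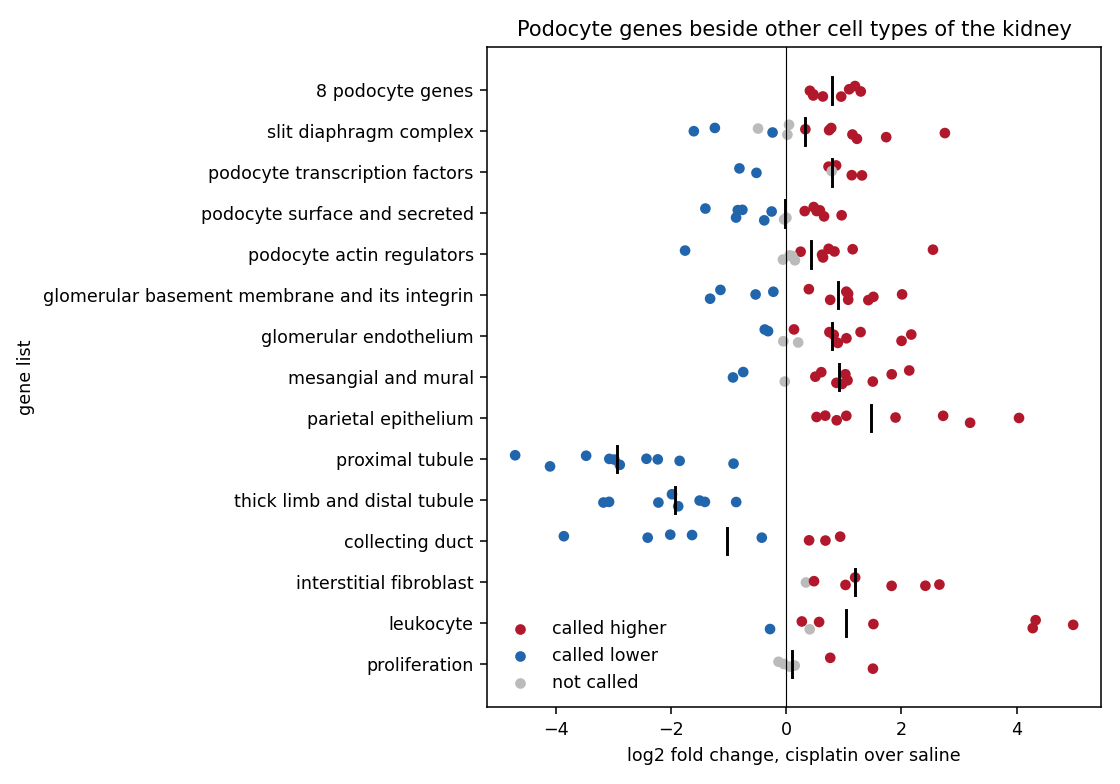
Log2 fold change of cisplatin over saline for every tested gene of each list (points; red called higher, blue called lower, grey not called at an adjusted p under 0.05), with a black bar at the median of the list. All 8 podocyte genes lie right of 0, the other podocyte lists reach to both sides, and the proximal tubule and thick limb lists lie wholly left of 0.

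Transcripts of the other cells of the glomerulus moved in the same libraries. In the glomerular endothelium list 8 of 12 genes rose, 2 fell and 2 were not called (median 0.79), and its summed level was 1311 to 1314 CPM after cisplatin and 799 to 804 CPM after saline. The 2 that fell, named here for that reason, were Ehd3 and Kdr, with log2 fold changes of -0.32 (SE 0.07) and -0.38 (SE 0.06). With library size alone 10 of the 12 rose and 0 fell. Pecam1, an adhesion protein gene of all endothelium, rose to 152 ± 3.27 CPM after cisplatin, against 90.5 ± 0.769 CPM after saline, and Plat, the tissue plasminogen activator gene, to 354 ± 9.33 CPM after cisplatin, against 78.5 ± 4.47 CPM after saline. Egfl7, a vascular matrix gene, had a log2 fold change of 0.89 (SE 0.07). Emcn, the endomucin gene, stood at -0.05 on the log2 scale (SE 0.06; edgeR quasi-likelihood, adjusted p = 0.407), and was called higher with library size alone (0.31, adjusted p = 0.000177).

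Of 12 mesangial and mural genes 9 rose, 2 fell and 1 was not called (median 0.92; summed level 633 to 641 CPM after cisplatin and 355 to 370.4 CPM after saline). Pdgfrb, the receptor gene of mesangial cells and pericytes, rose to 149.8 ± 2.97 CPM after cisplatin, against 52.8 ± 2.84 CPM after saline. Rgs5, Acta2 and Ren1, genes of pericytes, smooth muscle and renin cells, rose with log2 fold changes of 0.61, 1.03 and 0.97. The 2 that fell, named here for that reason, were Itga8 and Cspg4, with log2 fold changes of -0.75 (SE 0.08) and -0.93 (SE 0.10). All 8 parietal epithelium genes rose (median 1.47; summed level 786 to 794 CPM after cisplatin and 247 to 249 CPM after saline). Krt8 and Krt18, keratin genes of simple epithelium that injured tubules also express, had log2 fold changes of 1.90 and 3.19, Scin of 1.04 and Pax8, which tubules also express, of 0.52. Of the interstitial fibroblast genes 6 of 7 rose and 1 was not called (median 1.195; summed level 1041 to 1043 CPM after cisplatin and 321 to 331 CPM after saline). Of the leukocyte genes 6 of 8 rose, 1 fell and 1 was not called (median 1.04; summed level 118 to 119.9 CPM after cisplatin and 74.6 to 80.1 CPM after saline). The part of these cell types in the rise of Nes, Podxl, Wt1 and the other members was not tested.

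Relative to these cell types within a library, the summed counts of the 8 podocyte genes shifted little against the endothelial and mesangial lists. They were lower after cisplatin against the parietal epithelium list and higher against the tubule. Per count of the glomerular endothelium list they were 0.691 and 0.705 in the cisplatin libraries, against 0.744 and 0.737 in the saline libraries. Per count of the mesangial and mural list they were 1.43 and 1.44 after cisplatin, against 1.68 and 1.60 after saline. In both, the cisplatin libraries lay below the saline libraries, by 0.09 and 0.19 on the log2 scale. These sums lean on a few genes. Podxl and Cd2ap gave 8338 and 5265 of the 21526 member counts in cisplatin replicate 1. In saline replicate 1 they gave 4862 and 2992 of 10978. Plat gave 360 and 347 CPM of the 1311 to 1314 CPM of the endothelial list after cisplatin. After saline Plat gave 75.4 and 81.7 CPM of 799 to 804 CPM. Podxl and Cd2ap, which weigh most in the member sum, rose by 0.47 and 0.41 on the log2 scale. Plce1 rose by 0.47, Ptpro by 0.63, Nphs1 by 0.95, Wt1 by 1.09, Synpo by 1.19 and Nes by 1.29. The small shift of the sum thus mostly reflects Podxl and Cd2ap, and its direction need not hold without them. Ratios without Podxl, Cd2ap or Plat are not given. Per count of the parietal epithelium list the members were 1.14 and 1.18 after cisplatin, against 2.40 and 2.39 after saline. That list leans on its keratin genes. In cisplatin replicate 1 Krt8 and Krt18 gave 359 and 127 CPM, with a list sum of 786 to 794 CPM after cisplatin. In saline replicate 1 they gave 95.1 and 13.7 CPM, with a list sum of 247 to 249 CPM after saline. Per count of the proximal tubule list they were 0.284 and 0.293 after cisplatin, against 0.0269 and 0.0267 after saline. Per count of the thick limb and distal tubule list, all 8 of whose genes fell, they were 0.3698 and 0.3896 after cisplatin, against 0.0749 and 0.0740 after saline. Per count of the leukocyte list they were 7.57 and 7.86 after cisplatin and 7.96 and 7.40 after saline, so those groups overlapped. No p-value is given for these ratios, since with 2 libraries a group an exact permutation test cannot give one below 0.33.

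**Figure D4:**
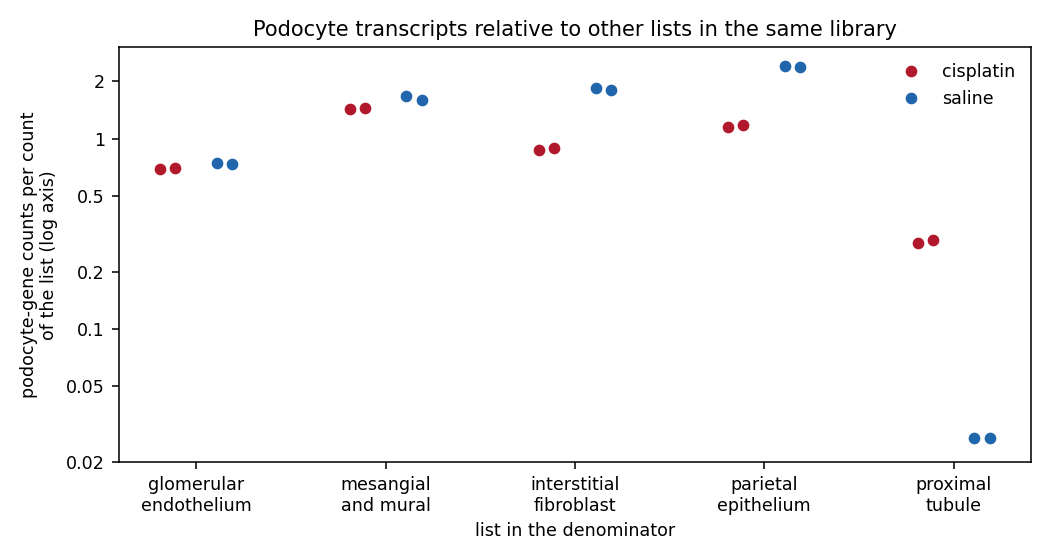
Summed counts of the 8 podocyte genes divided by the summed counts of another list in the same library (log axis), with a point for each library, cisplatin in red and saline in blue. The ratio is close between groups for glomerular endothelium and for mesangial and mural genes, lower after cisplatin for fibroblast and parietal lists, and higher after cisplatin for the proximal tubule.

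Genes with the profile most like that of each member were sought among 11541 tested genes averaging at least 5 CPM, by the Euclidean distance between log2 CPM values centred on their mean over the 4 libraries. For Nphs1 these were Cd53 (distance 0.02) and Rrp7a (0.03), for Podxl Ephb4 and Stam2 (0.02 each), for Synpo Mast4 (0.04) and Pkp3 (0.05), and for Wt1 Lasp1 (0.03) and Cdc42ep2 (0.04). For Ptpro they were Senp5 (0.02) and Gbp9 (0.03), for Nes Cxcl16 (0.02) and Cxcl14 (0.03), for Cd2ap RP23-342M4.7 (0.01) and Plk4 (0.02), and for Plce1 Mfap3 (0.01) and Rn7s1 (0.02). With 4 libraries in 2 groups such a distance mainly reflects a fold change of like size.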

How the data were processed

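The authors deposited raw counts per gene for 29190 genes, and FPKM (fragments scaled to transcript length and library depth) for 29157 of them, per the file headers and the labels. Per the submitters' processing notes the build was GRCm38, and bcl2fastq, TopHat2 and edgeR were used, with versions not given. The sources used here give neither the counting program nor its strand setting or annotation. Directional libraries were made from RNA depleted of ribosomal RNA and read as pairs of 150 nt, per the labels' protocols.

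After filterByExpr had taken out low genes, TMM factors scaled the libraries, and edgeR 4.0.16 (R 4.3.3) fitted its quasi-likelihood F test to all tested genes over 4 libraries with 2 residual degrees of freedom. P-values were Benjamini-Hochberg adjusted over all 17419 tested genes and called under 0.05. Standard errors follow from the fitted log2 fold change and its F statistic. Replicates differed beyond sampling noise (chi-square over degrees of freedom 11.5 in cisplatin, 36.6 in saline). A floor of 3 counts is 0.111 to 0.145 CPM, and depth sets counting error only. FPKM levels compare genes per length. The permutation test used scipy 1.17.1. The edgeR quasi-likelihood test was first tested on simulated counts with known fold changes, where, unlike here, most genes were left unchanged.

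The members and lists were chosen with earlier results of these data known. Named genes were the members, and of each other podocyte, endothelial, mesangial and parietal list the 4 tested genes with the highest mean FPKM, besides genes overlapping a member and the 2 nearest profiles. Some genes that this rule names are not reported here. Coordinates are from GENCODE M21 (GRCm38), matched by identifier without version. Alternatives were other scalings and filters, DESeq2 1.42.0, limma 3.58.1 trend on log2 of FPKM plus 0.1 or 1, a block for replicate number, and leaving out each library in turn.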

Additional observations from a re-analysis of the deposited data

How the results depend on the processing

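All 104 refits of the 8 members (13 alternatives each) kept a rise with an adjusted p under 0.05. Their log2 fold changes ranged from 0.38 (Cd2ap without saline replicate 1) to 1.66 (Nes with library size alone), and the largest adjusted p was 0.016. The number of members called higher was 8 in each. The number of all genes called lower, 6333 as reported, was 4207 with library size alone, and 3804 and 3784 with limma-trend on FPKM at a pseudocount of 0.1 and 1. In the 5 other podocyte lists the number called lower, 16 as reported, was 10 under each of these 3. The median log2 fold change of all tested genes was 0.16 with upper-quartile scaling, 0.14 with no filter, 0.13 with DESeq2 and 0.20 with FPKM at a pseudocount of 0.1. The number of member pairs whose ratios did not overlap was 21 with FPKM as with counts. Of 416 refits of the named genes of other lists, 396 kept direction and side of the threshold. Signs turned for Nck2 with DESeq2 (-0.00853), without cisplatin replicate 2 (-0.06) and without saline replicate 2 (-0.14), and for Emcn with upper-quartile scaling (0.0644), library size alone (0.31) and FPKM at either pseudocount (0.22 and 0.21); the cause was not tested. Same-numbered libraries share only a number (correlation of their deviations -0.02 over 17419 genes); with the replicate block 6382 genes were called higher and 6271 lower, and the 8 members were still called. Depth limited Wt1 most, with 159 counts in its thinnest library. With 2 libraries a group and 2 residual degrees of freedom, standard errors lean on the spread shared across genes.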
